A study of Mus musculus with 30 samples.

Results

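The 156 genes described here had a lower transcript intensity in mouse heart after 1 day of angiotensin II than before it. The arrays measure 18193 genes under a single symbol, each represented here by its brightest probe set, and 13052 of them were expressed in untreated heart, meaning that all 3 day 0 arrays placed them past the 40th percentile. To be chosen, such a gene had to have a day 1 mean at least 0.8 below the day 0 mean on the log2(intensity + 16) scale, and every day 1 array below every day 0 array. The rule found 167 genes (1.28% of those expressed), of which 11 are not described. The heart arrays of days 0 and 1 therefore chose the members, and every member difference that uses one of those arrays is given as a description without a test.

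Angiotensin II is the pressor peptide of the renin-angiotensin system, and its infusion raises blood pressure and loads the left ventricle. The adult ventricle runs mainly on fatty acids, lactate and glucose burned in its densely packed mitochondria, and a loaded heart is known to lower transcripts of oxidative metabolism and of the mature muscle cell while raising stress and growth genes. Cardiac fibroblasts at rest secrete small proteoglycans and other matrix proteins, and they change that programme when they are activated.

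The study measured 30 Affymetrix Mouse Genome 430 2.0 arrays of total RNA from male C57BL/6 mice aged 8 to 10 weeks. Treated mice carried an osmotic pump that delivered angiotensin II at 1500 ng per kg per min for 1, 3 or 7 days, and day 0 tissue received none. Heart was measured on 3 arrays at each of days 0, 1, 3 and 7, kidney on 2 arrays at each of these days, brain on 2 arrays at days 0, 3 and 7, and vessel on 1 array at each of the 4 days. The labels call the arrays of a group biological replicates, but leave unsaid whether organs share a mouse, whether day 0 mice carried a pump, and which vessel was taken. The p-values below measure only the spread between these samples.

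All values are linear intensities, with array medians between 35.2 and 37.8. Cardiomyocyte markers were abundant in heart: all 12 cardiomyocyte markers lay above the 40th percentile on the day 1 heart arrays, and none of the 12 changed at day 1 by limma with Benjamini-Hochberg adjustment (median -0.04). By the same test 8.57% of all 14040 genes fell at day 1 and 4.86% rose. Fibroblast markers did move with the members: of the 17 that are not members, 4 fell at day 1 by the same test (Dpt, Lum, Smoc2 and Abca8a), with a median of -0.41. With the 2 members among them, the 19 markers had medians of -0.66, -0.49 and -0.25 on the 3 arrays and a summed intensity of 23783 to 28747, against 28431 to 33802 at day 0. Neutrophil markers went the other way, with 5 of 11 higher, a summed intensity of 1671 to 7530 against 417 to 1466, and medians of 0.70, 1.29 and 0.23. With any 1 array left out, 1 to 8 of the 17 fibroblast markers were called lower and 1 to 8 of the 11 neutrophil markers higher, in each case most without day 1 replicate 3. Over all 14040 genes the fit without that array called 1932 lower and 1509 higher. The part of these cell types in the fall was not tested, and in whole tissue fewer cells of a type and less RNA per cell cannot be told apart.

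The falls at day 1 were unequal between the 3 arrays. The median log2 difference of the members from the day 0 mean was -1.08 on replicate 1, -1.27 on replicate 2 and -0.52 on replicate 3. Replicate 3 was the highest of the day 1 arrays for 148 of the 156 genes, and only 22 members reached the fall of 0.8 on that array alone, against 145 on replicate 1 and 154 on replicate 2. The order of replicate 3 above the others was the same in every role group, including all 26 mitochondrial members and 16 of 17 muscle members. Neutrophil markers were also nearest to day 0 on replicate 3. Without replicate 3 the median fall of the same members was -1.17, and without replicate 2 it was -0.80.

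**Figure D1:**
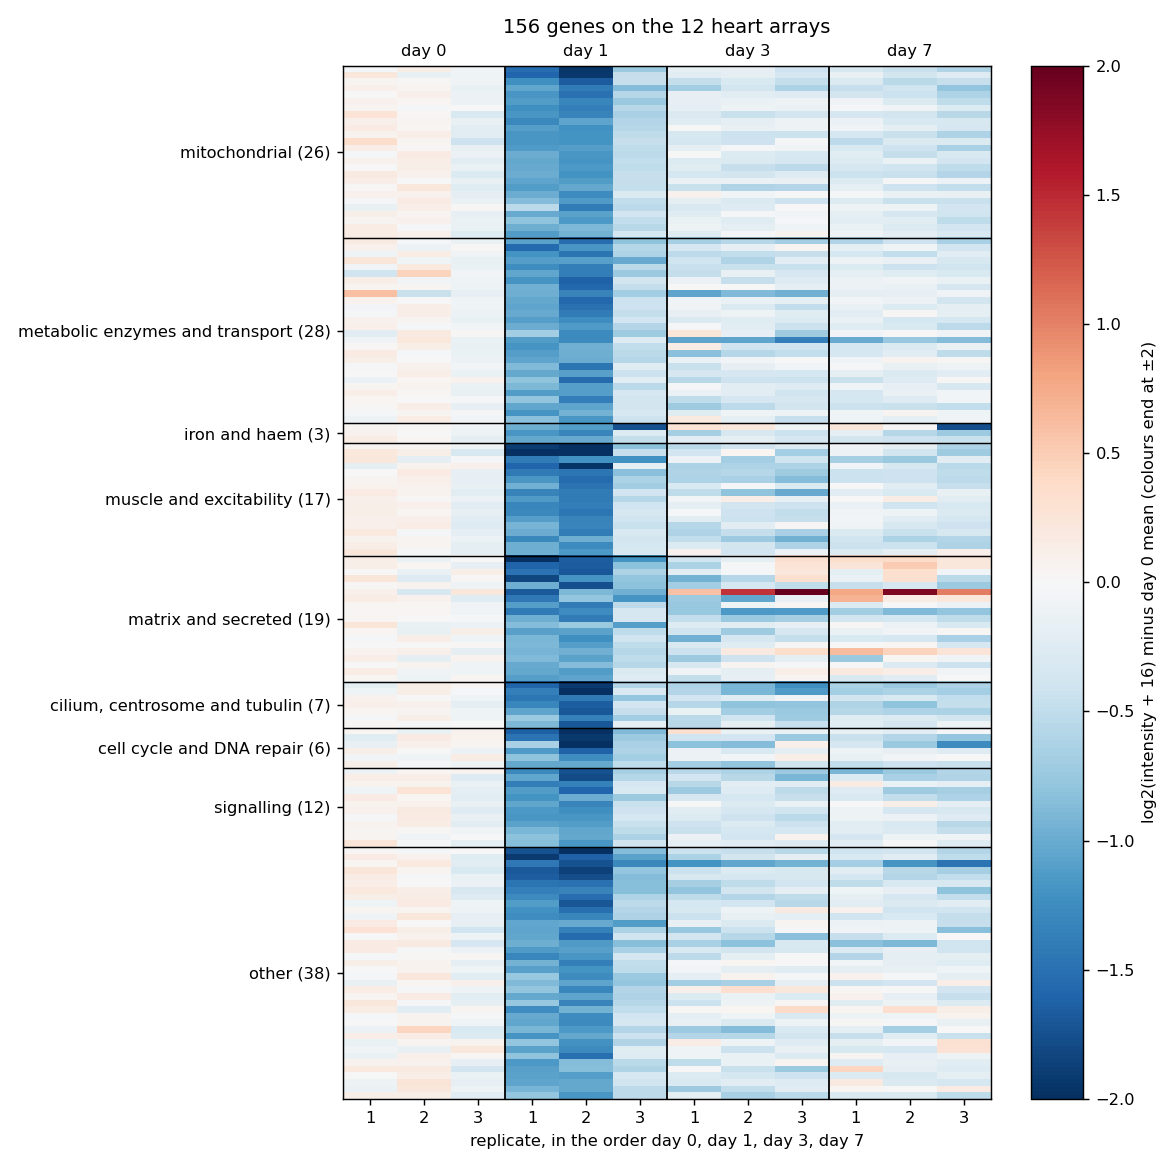
Difference of each of the 156 genes (rows, grouped by role and ordered by the day 1 fall) from its day 0 mean on each of the 12 heart arrays (columns), in log2(intensity + 16). Replicates 1 and 2 of day 1 form the darkest columns, replicate 3 of day 1 is paler, and most genes lie nearer to 0 at days 3 and 7 without reaching it.

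The role groups were assigned from textbook knowledge after the members were known. The mitochondrial group held 26 members, metabolic enzymes and transporters 28, muscle and excitability genes 17, and matrix and secreted proteins 19. Signalling genes numbered 12, cilium, centrosome and tubulin genes 7, cell cycle and DNA repair genes 6, and iron and haem genes 3. Another 38 genes were of other or unknown role. Each gene has a single role, and mitochondrial enzymes such as Gpt2 and Cmpk2 stand with the metabolic enzymes. Median falls at day 1 lay between -1.14 for cell cycle and DNA repair and -0.90 for the mitochondrial group, a narrow range that the rule itself bounds from above. The smallest falls among members were those of Pde7b, a cyclic AMP phosphodiesterase, at -0.8044, of Dgat2 at -0.8047 and of Dmac2 at -0.8064, while Dglucy at -0.7980, Efcab2 at -0.7970 and Egln1 at -0.7952 lay just outside. Another 16 genes fell by enough but had overlapping arrays, among them Cyp1a1 and Pfkfb2.

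Muscle genes held the largest fall of all. Asb10, a substrate adapter of cullin ubiquitin ligases, measured 619.5, 619 and 555 at day 0, 148, 111 and 329.6 at day 1, 407, 447 and 495 at day 3 and 567, 518 and 385 at day 7, replicates 1 to 3 in order. All day 1 arrays were below all others, with replicate 3 closest to them, and the day 1 mean was 3.18-fold lower (log2 difference -1.67). Smco1, a small membrane protein of muscle, measured 191, 178 and 128 at day 0, 27.6, 18.5 and 115 at day 1, 121, 169 and 95.6 at day 3 and 152, 123 and 93.3 at day 7. Replicates 1 and 2 of day 1 lay under the array median, whereas replicate 3 was only slightly below the lowest day 0 array (log2 difference of the means -1.63). Lrrc52, an auxiliary subunit of calcium-activated potassium channels, went from 92.5, 65.6 and 73.7 to 19.2, 24.1 and 23.8, one of the few members whose 3 day 1 arrays were alike. Mylk4, a kinase of the myosin light chain kinase family, went from 1299, 1543 and 1579 to 477, 366 and 1279, so that replicate 3 almost reached the lowest day 0 array.

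Mitochondrial members had differences of a similar size. Mtfp1, which promotes mitochondrial fission, measured 1535, 1713 and 1499.8 at day 0, 536, 397 and 935 at day 1, 1382, 1408 and 1177 at day 3 and 1266, 1151 and 1037 at day 7. Every array of days 1, 3 and 7 was below every day 0 array, and the day 1 difference was -1.41. Mterf2, of the family that binds mitochondrial DNA and controls its transcription, went from 605, 464 and 483 to 160.5, 124 and 364, a difference of -1.33. Pdp2, the phosphatase that switches on pyruvate dehydrogenase, went from 228, 223 and 209.5 to 84.3, 58.2 and 155, a difference of -1.12. Sirt3, the main mitochondrial deacetylase, went from 596, 546 and 454 to 238, 219.8 and 349.5 and differed by -0.96. The other members of this group include assembly factors of the respiratory chain (Ndufaf1, Ndufaf3, Sdhaf4, Dmac2), enzymes and factors of mitochondrial translation and RNA modification (Mtif2, Mrpl55, Trmt5, Trmt2b) and carriers (Slc25a26, Slc25a34).

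Enzymes and transporters outside this group spanned several substrates. Phkg1, the catalytic subunit of muscle phosphorylase kinase, which starts glycogen breakdown, was dim and went from 83.4, 69.1 and 63.9 to 25.8, 14.6 and 34.1 (difference -1.13). Rida, which clears reactive enamine and imine intermediates of amino acid metabolism, went from 173, 147 and 164 to 44.1, 62.6 and 103 (difference -1.10). Pank1, which commits pantothenate to coenzyme A, went from 810.0, 951 and 817 to 366, 303 and 552 (difference -1.09). In all 3 genes replicate 3 was the highest day 1 array. Slc2a4, the insulin-regulated glucose transporter GLUT4, went from 1986, 2266 and 1949 to 989, 722 and 1538 (difference -0.99).

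The iron and haem genes differed in their later course. Tfrc, the transferrin receptor through which cells take up iron, measured 1647, 1616 and 1516 at day 0, 799.5, 726 and 465 at day 1, 1922, 1848 and 1500.5 at day 3 and 1877, 1620.2 and 454 at day 7. It was among the few members whose lowest day 1 array was replicate 3, it was back at the day 0 level at day 3, and 1 of the 3 day 7 arrays was again as low as day 1. Hjv, a bone morphogenetic protein co-receptor of iron control, went from 1526, 1455 and 1343 to 632, 568 and 1187, and Uros, an enzyme of haem synthesis, went from 573, 527 and 449 to 246, 249 and 363.

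Matrix and secreted members were led by Itih5, a hyaluronan-binding heavy chain protein, which measured 401, 333 and 368 at day 0, 70.5, 106 and 151 at day 1, 274, 322 and 461 at day 3 and 472, 477 and 429.6 at day 7. Its day 1 arrays were lowest by a wide margin, and its day 7 arrays were all above day 0. Islr, a surface protein of fibroblasts and mesenchymal cells, went from 732, 693 and 594 at day 0 to 211, 201 and 373 at day 1 and was at 800.4, 965 and 783 at day 7. Ogn, the proteoglycan osteoglycin, went from 1839.6, 1666 and 1968 to 643, 552 and 1187 at day 1 and reached 1554, 1782 and 2141 at day 3. By day 7 all Islr arrays were above day 0, and the Ogn arrays of day 3 straddled the day 0 range.

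Among genes of the cilium and tubulin, Ift81, a carrier subunit of intraflagellar transport, measured 1707, 2103 and 1995 at day 0, 626, 499 and 1279 at day 1, 1250.4, 1016 and 816 at day 3 and 1237, 1151 and 1251 at day 7. Every later array stayed below every day 0 array. Ttll1, an enzyme that adds glutamate chains to tubulin, went from 3988, 4594 and 4114 at day 0 to 1624, 1055 and 3410.4 at day 1 and was at 2636, 2717 and 2619 at day 7, again with no overlap. Another, dimmer Ttll1 probe set above the 40th percentile at day 0 differed by only -0.24 at day 1, with overlapping arrays. Tmem218, a membrane protein of the cilium, differed by -1.21 at day 1.

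In the cell cycle and repair group, Shld1, a subunit of the shieldin complex that protects DNA ends, measured 1076, 955 and 1111 at day 0, 325, 237 and 560.3 at day 1, 1308, 955 and 957 at day 3 and 939, 903 and 1013 at day 7. Only its day 1 arrays stood apart. Ung, which removes uracil from DNA, went from 241, 327 and 305 to 93.3, 64 and 167, and Cenpf, a kinetochore protein of dividing cells, from 165, 198 and 192 to 112, 27.9 and 112, with 1 array much lower than the other 2. Signalling members included Tbc1d10c, an inhibitor of calcineurin and Ras, at 188, 208 and 212 and then 73.2, 49.6 and 122, the membrane ligand Efnb3 with a difference of -1.13, and the stress kinase Rps6ka5 with -1.02.

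Among members with no clear group, Cmss1 went from 1809, 1743 and 1772 to 520.3, 410.4 and 962, Lrrc27 from 367, 349 and 273 to 74.7, 96.4 and 147, and Tmem25, an immunoglobulin-like membrane protein, from 232, 204 and 156 to 50.0, 41.6 and 107. The day 1 differences were -1.56, -1.54 and -1.44. Oxld1 and Cmtm8 followed at -1.43 and -1.27.

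A second probe set gave a partial check of these values. Of the members, 85 had further probe sets, and 101 such probe sets in 70 members lay above the 40th percentile on all day 0 heart arrays. At day 1, 93 of the 101 were lower, 75 of them without overlap, with a median of -0.62, and 26 members had a second probe set that met the rule on its own. Only 29 of the 101 were lower by at least 0.8. Of all genes expressed in untreated heart, 19.6% had every day 1 array below every day 0 array. These probe sets were read on the arrays that chose the members, so they check the probe set and not the arrays. The exceptions include 2 of the 5 largest falls. The other probe set of Cmss1 above the filter differed by 0.05 and that of Lrrc27 by 0.12, against -1.56 and -1.54 for the chosen ones, and one of Mfap3l by 0.18 against -1.18. These 3 other probe sets were dimmer than the chosen ones, and which of the disagreeing probe sets reports the gene was not tested.

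Promoter sequences were compared because the members fell together. RefSeq promoters of build GRCm38.p6 were given for 126 members, and the 250 bases before each start were searched on both strands for 8 short motifs, with a gene counted once. The extended site of orphan nuclear receptors such as the estrogen-related receptors, AAGGTCA, was found in 11 of 126 members (8.73%), in 3.64% of 10480 genes expressed in untreated heart and in 4.70% of all 27025 genes of the table. By role it occurred in 4 of 23 mitochondrial and 3 of 14 muscle members, in 1 of 20 metabolic members (5.0%) and in none of 16 matrix members. The GATA motif GATAAG occurred in 14 members (11.1%, against 5.97% of heart-expressed genes), and the glucocorticoid receptor core motif GGAACA in 21 members (16.7%, against 13.6%). The E box CACGTG was less common in members (3.97%) than in heart-expressed genes (9.70%), the KLF and Sp motif CCACACCC was in 3.97% against 4.07%, and the cAMP response element TGACGTCA in 0.79% against 2.85%. Motifs of MEF2 and of NRF1 were in none of the 126 windows and in 0.42% and 1.71% of heart-expressed genes. These shares are descriptions of short windows, and a match or its absence says nothing of binding.

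Windows that hold AAGGTCA, or TGACCTT where it lies on the opposite strand, and that are outside every annotated gene are shown for members of the mitochondrial, muscle and repair groups with up to 20 bases on each side. The match is in capitals, each line reads 5′ to 3′ on the strand of the gene, and the fifth sequence shows GATAAG in the promoter of Pdp2.
Smco1: taaaagcttcatggactgggTGACCTTct
Shld1: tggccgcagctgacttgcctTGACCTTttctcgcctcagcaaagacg
Slc25a34: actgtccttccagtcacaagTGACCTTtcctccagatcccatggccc
Coq10a: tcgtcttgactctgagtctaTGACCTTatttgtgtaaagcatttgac
Pdp2: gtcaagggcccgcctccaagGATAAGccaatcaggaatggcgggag
The Smco1 window is chr16:32271451-32271479, plus strand, 9 bases before the start, and that of Shld1 is chr2:132686849-132686895, plus strand, 62 bases before it. Slc25a34, a carrier of the inner mitochondrial membrane, has its match at 119 bases (chr4:141623927-141623973, minus strand). Coq10a, a coenzyme Q-binding protein, has it at 230 bases (chr10:128370241-128370287, minus strand), and Pdp2 has its GATA match at 61 bases (chr8:104591391-104591436, plus strand). Slc25a34 intensity in heart went from 1914, 2189 and 1802 at day 0 to 980.1, 862 and 1353 at day 1, and Coq10a from 1067, 1233 and 888 to 474, 511 and 750.5.

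Other genes of the same pathways, from lists made with earlier results of these data known, were also lower in part. A heart-expressed gene that fell by at least 0.8 without overlap is a member or 1 of the 11 not described. The rule itself therefore keeps the falls of the other list genes smaller, unless their arrays overlapped. Among those called lower by limma, only Pfkfb2 fell by more, with overlapping arrays. In the heart fit 8.57% of all 14040 genes fell and 4.86% rose at day 1 (limma, adjusted p under 0.05), 1203 and 683 genes. These counts depend on single arrays: falls ranged from 266 without day 1 replicate 1 to 1932 without day 1 replicate 3, and rises from 139 to 1509, while leaving out day 1 replicate 2 or day 0 replicate 1, 2 or 3 gave 412, 357, 388 and 1083 falls and 211, 217, 243 and 369 rises. The list counts below are from all heart arrays. With members left out, 9 of 23 genes of branched-chain amino acid breakdown fell and none rose, with a median of -0.38, led by Ppm1k, the phosphatase that switches on the branched-chain dehydrogenase, at -0.75, Hibch at -0.69 and Mcee at -0.67 (limma adjusted p = 0.0041 for Mcee). Of 21 genes of glucose and insulin handling, 8 fell and 2 rose: Pfkfb2, which makes the activator of phosphofructokinase, was at -1.11 (limma adjusted p = 0.015), Pdk2 at -0.62 and Gys1, muscle glycogen synthase, at -0.60, while the basal glucose transporter Slc2a1 rose by 0.96 (adjusted p = 0.009). Of 19 regulators of the mitochondrial programme, 7 fell and none rose, including Perm1 at -0.75, the mitochondrial ribosomal RNA methyltransferase Tfb1m at -0.73 and the nuclear receptor Esrrg at -0.69. Fatty acid and triglyceride genes had 5 falls among 22, led by Cpt2 at -0.64. Without day 1 replicate 3 the falls in these 4 lists numbered 15, 12, 9 and 7. Without day 1 replicate 1 they numbered 1, 1, 2 and 0, without day 1 replicate 2 they were 2, 1, 1 and 0, without day 0 replicate 1 they were 2, 1, 2 and 0, and without day 0 replicate 2 they were 2, 1, 1 and 0. Without day 0 replicate 3 there were 9, 11, 7 and 3. The list medians were below 0 in each of these fits.

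The matrix list of quiescent fibroblasts had 3 further falls among 20 genes, Dpt at -0.78, Lum at -0.75 and Smoc2 at -0.39. Of 19 ion channel genes, 3 fell (Abcc9, Abcc8 and Cacna1c, at -0.60, -0.55 and -0.44). Of 18 genes of adrenergic and cyclic nucleotide signalling, 2 fell, the adenylyl cyclases Adcy5 and Adcy6, at -0.51 and -0.49. Calcium handling had 2 falls among 20 genes, Hrc at -0.59 and S100a1 at -0.28, growth factors had 1 among 22, Vegfb at -0.52, and cardiac transcription factors had none among 22. In the same fit 8.57% of all genes fell and 4.86% rose, so that 1 or 2 falls in a list of this size are near the share over all genes. Among 15 muscle ubiquitin ligase genes none was called lower, although their median was -0.28. Asb15 and Rnf207 of this list differed by -0.82 and -0.81 but had overlapping arrays. Klhl40 was called higher, by 1.87 (limma adjusted p = 0.0024), and the members Asb10 and Asb14 of the same list were lower. With 1 array left out, falls ranged from 1 to 9 in the matrix list, 0 to 8 for ion channels, 0 to 3 for adrenergic signalling and for calcium handling, 0 to 4 for growth factors, 0 to 7 for transcription factors and 0 to 8 for ubiquitin ligases. The upper ends all belong to the fit without day 1 replicate 3, and the lower ends are shared by day 1 replicate 1 and other arrays. In each of these fits 1 or 2 ligase genes were called higher.

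At days 3 and 7 the members lay closer to day 0, and most were still below it. The member median was -0.94 at day 1, -0.32 at day 3 and -0.26 at day 7, beside -0.02 for all genes tested at each of these days. All 3 day 3 arrays were below all 3 day 0 arrays for 75 of 156 members (48.1%), against 11.1% of all expressed genes, and at day 7 for 63 members (40.4%), against 12.5%. Conversely, 93 members at day 3 (background 11.8%) and 111 at day 7 (background 15.3%) had every array above every day 1 array. The day 0 and day 1 arrays in these counts are those that chose the members, so that the counts are a description without a test. The median at day 3 was similar on the 3 arrays of that day but moved with the day 0 arrays, from -0.39 without day 0 replicate 3 to -0.27 without day 0 replicate 1.

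**Figure D2:**
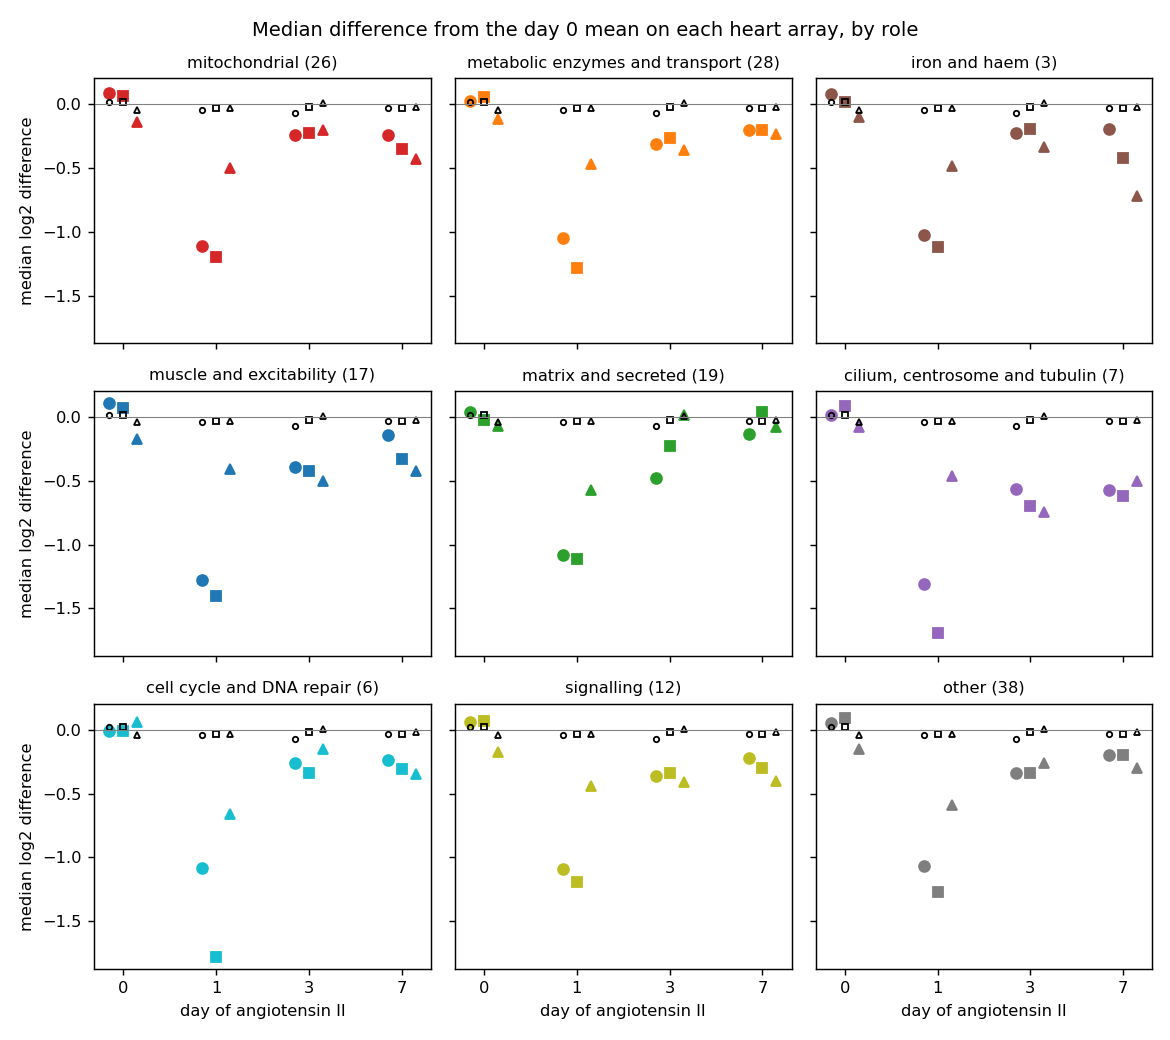
Median log2(intensity + 16) difference from the day 0 mean of the members of each role group on each heart array (coloured; circle, square and triangle are replicates 1, 2 and 3), with the median of all expressed genes in open black symbols. In every group the triangle of day 1 lies above the other 2 day 1 symbols, and the cilium group stays between -0.74 and -0.50 at days 3 and 7 while the matrix group lies between -0.48 and 0.02 at day 3 and between -0.13 and 0.04 at day 7.

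The groups returned to different extents. Cilium, centrosome and tubulin genes had medians of -0.55 at day 3 and -0.61 at day 7, and all 7 had every day 7 array below every day 0 array (background 12.5%). Mitochondrial members stood at -0.20 at day 3 and -0.32 at day 7. Of these 26 members, 23 were above all day 1 arrays at day 3 (background 11.8%) and 14 below all day 0 arrays at day 7 (background 12.5%). These counts also use the arrays that chose the members and are a description without a test. Muscle genes stood at -0.40 and -0.29, and metabolic enzymes at -0.27 and -0.21. Matrix and secreted genes stood at -0.22 and -0.12, with medians of -0.48, -0.23 and 0.02 on the 3 day 3 arrays. Fibroblast markers moved with them, at -0.18, 0.02 and 0.21 on the same arrays and at 0.17, 0.14 and 0.16 at day 7, and their part was not tested. The matrix group held all 4 members whose day 7 arrays were all above day 0, Itih5, Islr, Aspn and Col4a4, where the background is 9.29% of expressed genes.

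The members that stayed lowest at day 7 were Tmprss13, Ces1d, Egflam, Cenpf and Tbc1d10c. Tmprss13, a membrane serine protease, measured 91.5, 104 and 73.7 at day 0, 23.2, 15.3 and 27.2 at day 1, 29.9, 35.4 and 38.7 at day 3 and 49.3, 30.3 and 21.6 at day 7, so that no later array reached the lowest day 0 array (day 7 minus day 0, -1.12). Ces1d, a carboxylesterase of lipid metabolism, measured 669.6, 813 and 637 at day 0, 316, 281 and 584 at day 1, 332, 329 and 261 at day 3 and 343, 408 and 379 at day 7. Its day 3 difference of -1.16 was larger than that of day 1, -0.88. Egflam, the matrix protein pikachurin, differed by -1.01 at day 3 and -0.79 at day 7, and Cenpf and Tbc1d10c differed by -0.78 and -0.75 at day 7.

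Aspn had the largest upward difference at days 3 and 7. This proteoglycan, asporin, measured 262, 190.5 and 287 at day 0, 65.2, 124 and 117 at day 1, 372, 688 and 1048 at day 3 and 426, 929.7 and 511 at day 7. Every day 3 and day 7 array was above every day 0 array, with differences of 1.35 and 1.22, and it was the only member above all day 0 arrays at day 3 (background 7.14%). Col4a4, a chain of basement membrane collagen IV, went from 84.9, 86.5 and 68.9 at day 0 to 34.3, 33.3 and 48.3 at day 1 and 133, 115 and 98.3 at day 7.

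**Figure D3:**
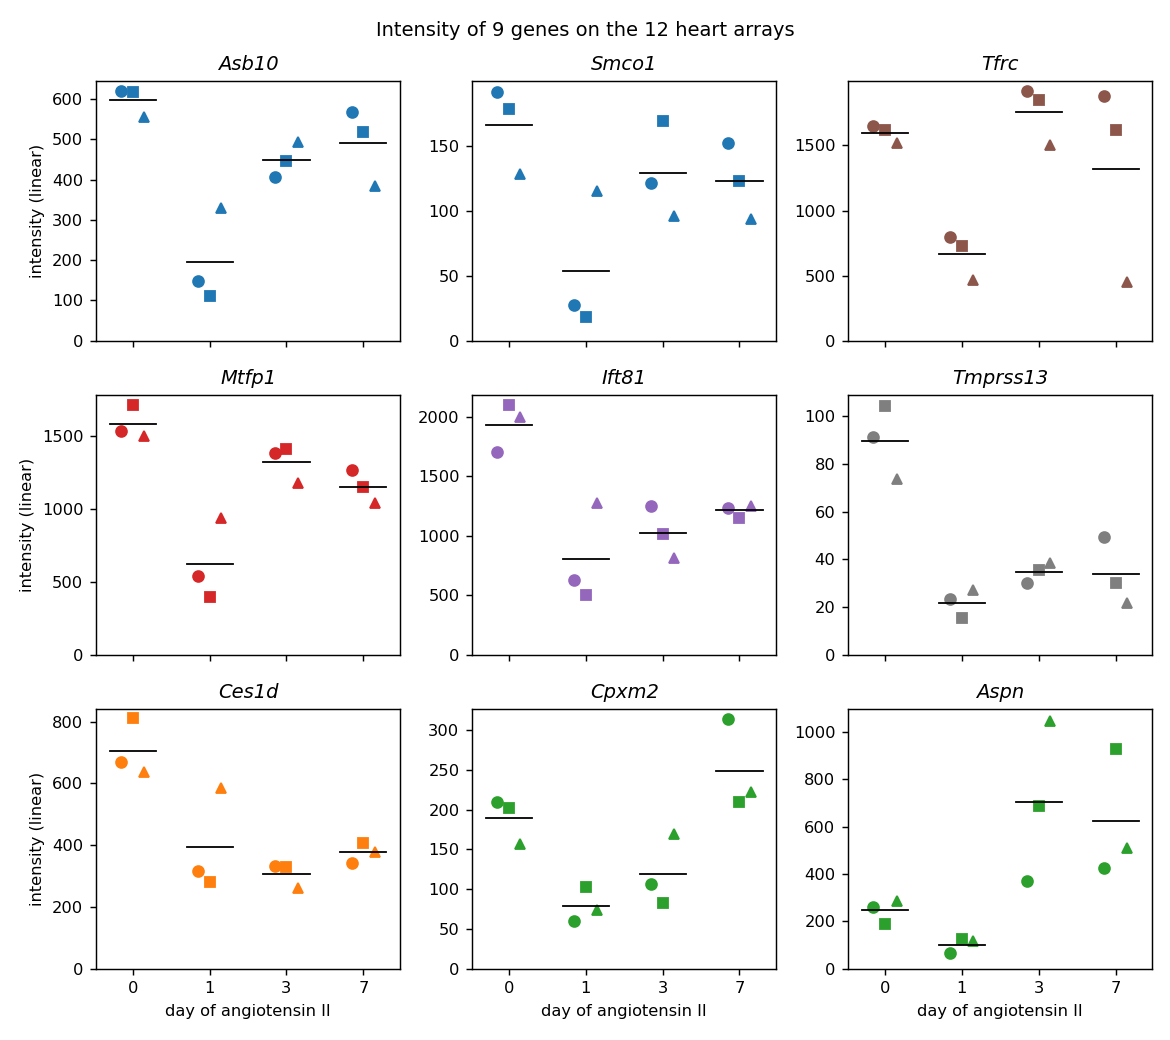
Linear intensity of 9 genes on the 12 heart arrays against day (points; circle, square and triangle are replicates 1, 2 and 3; short horizontal lines are means). Asb10, Smco1 and Mtfp1 are higher again after day 1, Ift81, Tmprss13 and Ces1d stay below day 0, 1 day 7 array of Tfrc is low, and Aspn lies above day 0 at days 3 and 7.

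Day 7 against day 3 is the one heart difference that uses none of the arrays of the rule, although its spread is estimated over all heart arrays, those of days 0 and 1 included. No gene of 14040 was called by limma at an adjusted p under 0.05 in either direction (0.0% called), members included, and 7 of 156 members had an unadjusted p under 0.05, 6 of them higher at day 7, where 7.00% of all genes did. The count of members called was also 0 under every alternative setting that was run. With only the day 3 and day 7 arrays in the fit, 15 members had an unadjusted p under 0.05, 12 of them higher at day 7, beside 1029 of the 14040 genes. With 1 array left out the count ran from 4, without day 3 replicate 2 or day 7 replicate 3, to 10, without day 3 replicate 3. The smallest p-values belonged to Cpxm2, Cmpk2 and 2010315B03Rik. Cpxm2, a secreted carboxypeptidase-like protein, measured 107, 83.1 and 169 at day 3 and 313, 209 and 222 at day 7, groups that did not overlap (log2 difference 0.99 ± 0.23 SE, limma adjusted p = 0.61). Cmpk2, a mitochondrial nucleotide kinase induced by interferon, measured 87, 100.1 and 93.4 and then 170.4, 175 and 188, also without overlap (0.82 ± 0.22, adjusted p = 0.61).

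In kidney 146 of the members passed the filter, and 1 of them changed at day 1. Tmem25 measured 457 and 431 at day 0, 252 and 253 at day 1, 382 and 372 at day 3 and 404 and 385 at day 7. Both day 1 arrays were clearly lowest, and the fall was 1.71-fold (log2 difference -0.78 ± 0.08 SE, limma adjusted p = 0.017), in a comparison where 0.239% of 14214 genes fell and 0.26% rose. The adjusted p of Tmem25 lay between 0.0085 and 0.16 over the alternatives, and the call was lost without day 0 replicate 1, without day 0 replicate 2 or without day 1 replicate 2, with 0 members called in each case. Each of these fits leaves a group with 1 array, which is assumed to vary like the other groups, and without day 0 replicate 1 no gene at all was called. Adipocyte markers were far higher on the day 1 kidney arrays (medians 2.55 and 3.03 above day 0, summed intensity of 11876 to 12777 against 4739 to 5672), and their part in the kidney values was not tested. An unadjusted p under 0.05 was reached by 35 of 146 members, 23 of them lower, where 16.3% of all genes reached it. This count was 39 with only the groups compared and lower in each fit with 1 array left out.

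At days 3 and 7 limma called no member in kidney and no gene at all (0.0% called), with 17 and 20 of 146 members at an unadjusted p under 0.05, beside 8.46% and 6.68% of all genes. With only the groups compared the counts were 10 at day 3 and 21 at day 7. With 1 array left out the day 7 count was lower in each fit, while the day 3 count went up or down with the array. Each of these fits leaves a group with 1 array. The smallest p-values at day 3 were those of the phosphodiesterases Pde7a and Pde7b and of Cmpk2. Pde7b measured 157 and 167 at day 0, 234 and 236 at day 3 and 259 and 219 at day 7, higher on all 4 arrays of days 3 and 7 (0.50 ± 0.10 at day 3, limma adjusted p = 0.40, and 0.52 ± 0.10 at day 7, adjusted p = 0.69). Pde7a measured 85.4 and 89.9 and then 125 and 119 at day 3 (0.41 ± 0.08, adjusted p = 0.37). Cmpk2 measured 381 and 277 at day 0 and 163 and 197 at day 3 (-0.80 ± 0.16, adjusted p = 0.37). Without day 3 replicate 1 the ketone body enzyme Bdh1 was called at day 3, the 1 member called in kidney at that day under any alternative. Bdh1 measured 1446 and 1374 at day 0, 812 and 937 at day 1, 969.5 and 646 at day 3 and 1074 and 1160.5 at day 7. That call rests on 1 day 3 array, replicate 2, whose spread is assumed to be that of the other groups. On this array adipocyte markers were 4.29 above day 0 in median, with a summed intensity of 19767, and adrenal cortex markers summed to 8052; their part was not tested. Ecrg4, a secreted peptide precursor, was at 34.1 and 219 on the day 0 kidney arrays and at 26.7 and 465 on the day 3 arrays. Its high arrays are the 2 on which adrenal cortex markers reached a summed intensity of 4514 and 8052, against 260 to 291 on the other day 0, 1 and 3 arrays, and the part of that tissue was not tested.

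Brain gave no call either. Of the members, 142 passed the filter, limma called none and no other gene at days 3 and 7 (0.0% called), and 8 and 10 members had an unadjusted p under 0.05, beside 7.38% and 7.13% of all genes. These counts depend on single arrays: without day 0 replicate 2 they were 35 and 30, beside 2648 and 2491 of 14109 genes, and without day 7 replicate 2 the day 7 count was 0, beside 186 genes. The other fits with 1 array left out gave 5 to 10 members at day 3 and 6 at day 7, the 5 without day 3 replicate 1 and the 6 without day 0 replicate 1 or day 7 replicate 1. Htra3, a secreted serine protease, measured 119.5 and 102 at day 0, 54.1 and 67.9 at day 3 and 74.6 and 58.4 at day 7, with both later pairs below day 0 (-0.72 ± 0.17 at day 3 and -0.62 ± 0.17 at day 7, limma adjusted p = 0.66 and 0.67). Ecrg4 measured 877 and 687 at day 0, 71.5 and 168 at day 3 and 403 and 100.3 at day 7, a wide spread within each treated pair (-2.64 ± 0.67 at day 3, adjusted p = 0.66). Scara5, Acad11 and Cdkn1c completed the smallest p-values. These p-values do not show that the members were stable there.

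Level by tissue was compared at day 7, on arrays outside the rule, although the rule required expression in untreated heart. At day 7, 98 of 156 members were higher in heart than in kidney and 24 lower (limma, joint fit of heart, kidney and brain, adjusted p under 0.05), beside 24.8% and 27.7% of all 14715 genes tested and 27.3% and 25.8% of genes expressed in untreated heart. Against brain 105 were higher and 30 lower, beside 34.4% and 32.9% of 14959 genes and 38.2% and 29.7% of heart-expressed genes. Since members passed the filter through heart, 19 lay at or under the 40th percentile on at least 1 day 7 kidney array and 23 on a day 7 brain array, 18 and 23 of them among those called higher in heart. The median differences were 0.88 and 1.30. Heart had the highest day 7 mean of the 4 tissues for 90 members (57.7%), where it did for 27.3% of heart-expressed genes.

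All 17 muscle members were called higher in heart than in kidney, as were 27.3% of heart-expressed genes. Against brain 12 were called higher and 3 lower, beside 38.2% and 29.7% of heart-expressed genes. The muscle role was assigned from textbook knowledge, so that a higher level in heart is partly built into the group. Only 11 of the 17 passed the filter in kidney and 10 in brain, and the others entered each comparison through heart alone. Rpl3l, the striated muscle form of a ribosomal protein, measured 1893, 1614 and 1662 in day 7 heart, 44.4 and 47.5 in kidney and 12.8 and 12.9 in brain. The kidney and brain values lay near or below the array median, far under every heart array (28.0-fold over kidney and at least 43.5-fold over brain on intensity + 16, limma adjusted p = 9.8e-14 and 3.1e-15). A fold given as at least takes, for each dim array, the higher of the gene's value and the array's 40th percentile. Mylk4 measured 1399.7, 1174 and 1002 in heart, 18.2 and 20.7 in kidney and 17.2 and 21.6 in brain (at least 29.7-fold over kidney, and over brain a log2 difference of at least 4.91, limma adjusted p = 2.4e-11 and 1.7e-11). Dhrs7c, an oxidoreductase of the muscle sarcoplasmic reticulum, was at least 27.0-fold over kidney and at least 27.3-fold over brain, and Hjv at least 25.5-fold and 25.1-fold. Fndc5, the precursor of irisin, was 18.4-fold over kidney but 2.82-fold over brain, and Fblim1, an adaptor of cell adhesion sites, was 7.62-fold and 23.9-fold.

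Metabolic enzymes were more often higher in kidney: 4 of 28 were called higher in heart than in kidney and 14 lower, beside 27.3% and 25.8% of heart-expressed genes. Kidney had the highest day 7 mean for 15 of them, as for 22.2% of heart-expressed genes. Rida measured 139, 151 and 120.2 in day 7 heart against 6629.6 and 6625 in kidney, 43.7-fold lower in heart (limma adjusted p = 7.5e-13). Aspa, which splits N-acetylaspartate, measured 81.8, 90.3 and 71.6 against 2772 and 3217, 31.0-fold lower (adjusted p = 2.8e-10). Mettl7a1, a methyltransferase-like protein, was 10.2-fold lower, Mfap3l 10.1-fold and the glomerular collagen chain Col4a4 8.18-fold. The mitochondrial group was heart-weighted, with 18 of 26 called higher than in kidney and 3 lower (Pdp2, Fahd1 and Sirt3). Against brain 23 were called higher, as were 38.2% of heart-expressed genes.

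**Figure D4:**
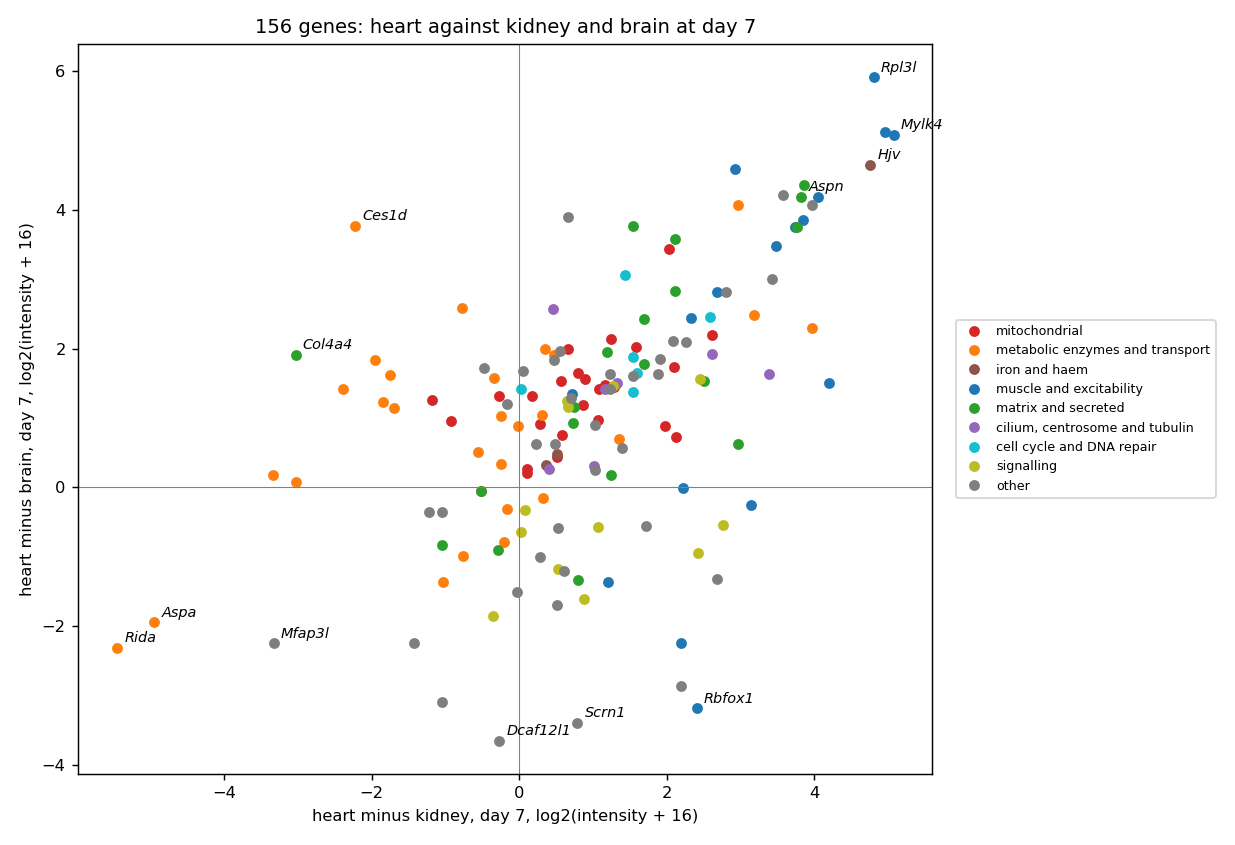
Heart minus kidney (x axis) against heart minus brain (y axis) at day 7 for the 156 genes, each the difference of group means of log2(intensity + 16), coloured by role; genes under the 40th percentile in kidney or brain are plotted at their measured means. Mylk4, Rpl3l and Hjv lie at the upper right, Rida and Aspa at the far left, where kidney is higher, and Rbfox1, Scrn1 and Dcaf12l1 lie at the bottom, where brain is higher.

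Genes higher in brain than in heart were led by Dcaf12l1 (12.6-fold lower in heart), the secernin Scrn1 (10.5-fold) and the splicing factor Rbfox1 (9.09-fold), followed by Tmem14a (8.59-fold) and Reep1 (7.31-fold), all with a limma adjusted p of at most 2.1e-10. Rbfox1 measured 265, 266 and 245 in heart, 35.2 and 35.8 in kidney and 2109 and 2910.2 in brain. Ano4 and Syt7 were the other muscle members called lower in heart than in brain. Signalling genes had their highest mean in brain for 7 of 12, as 27.7% of heart-expressed genes did.

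Vessel was measured on 1 array per day, so that no test was possible. The member median was -0.01 at day 1, -0.33 at day 3 and -0.38 at day 7, beside 0.04, 0.00 and 0.00 for all genes. Members at least 0.8 lower than at day 0 numbered 8 at day 1 (background 1.37%), 24 at day 3 (2.30%) and 30 at day 7 (2.39%), while 2, 13 and 4 were at least 0.8 higher (1.01%, 5.91% and 6.14%). All 26 members of the mitochondrial group were lower at day 3 and at day 7, with medians of -0.62 and -0.70, after a median of 0.14 at day 1. Of the mitochondrial enzymes placed with the metabolic group, Gpt2 and Cmpk2 were higher, by 0.88 and 0.42 in the mean of days 1, 3 and 7. Slc2a4 measured 2607, 2185, 1205 and 1046 at days 0, 1, 3 and 7, and Sirt3 536, 562, 285 and 266, so that both were lower at days 3 and 7 and near their day 0 value at day 1.

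The vessel samples also differed in their tissue markers. Adipocyte markers summed to 57296, 61079, 49778 and 36491 at days 0, 1, 3 and 7, cardiomyocyte markers to 21832, 10894, 2361 and 19714, and macrophage markers were 0.60, 2.03 and 1.25 above day 0 in median. The part of these markers in the vessel values was not tested. Matrix members moved differently from the mitochondrial ones there, with medians of -0.35, 0.43 and -0.05, while fibroblast markers were at -0.41, 0.41 and 0.06, a part that was not tested either. The lowest members over the 3 treated days were Ecm2, a matrix protein, at 178, 55.9, 71.7 and 45.2, Pm20d1, which makes N-acyl amino acids, at 186, 118, 52.7 and 85.1, and the mitochondrial ATPase Afg1l at 792, 618, 270.2 and 389.5. The highest were Cenpf at 26.1, 24, 84.1 and 105, Gpt2, a mitochondrial alanine aminotransferase, at 126, 204, 279.9 and 259, and Cyfip2 at 31.7, 43.3, 120.2 and 65.6.

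**Figure D5:**
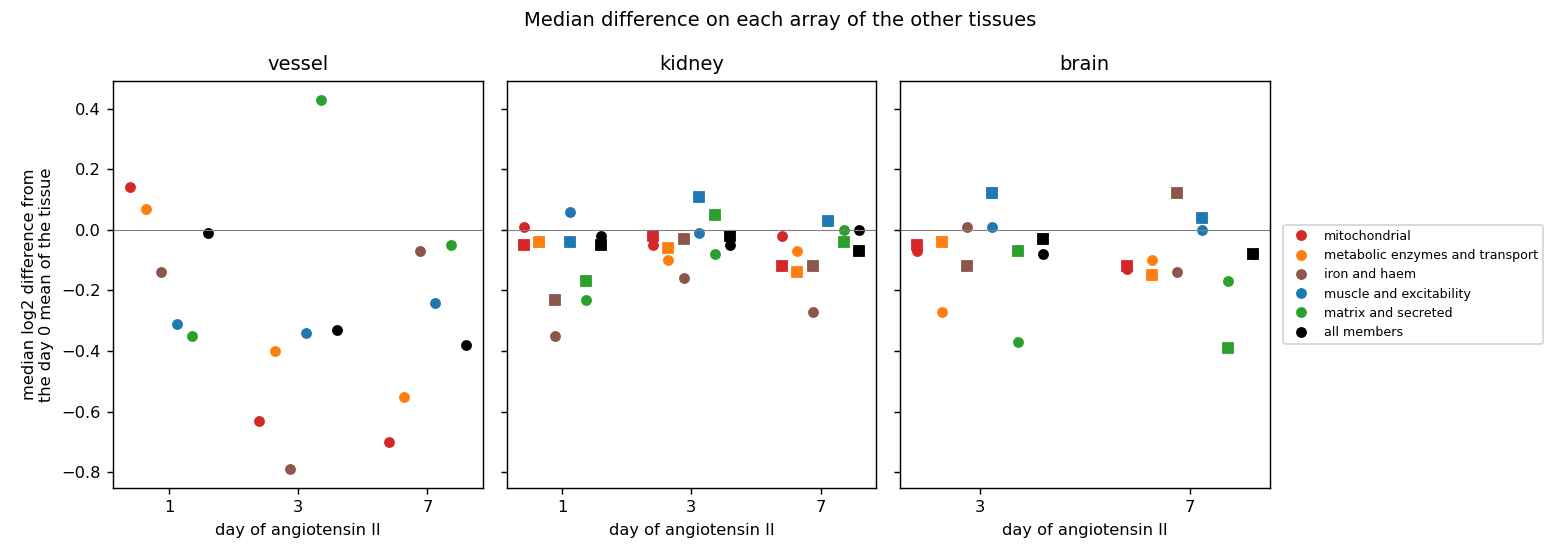
Median log2(intensity + 16) difference from the day 0 mean of the same tissue for all members and for 5 role groups, on each array of vessel, kidney and brain (circle and square are replicates 1 and 2; vessel has 1 array per day). Mitochondrial and metabolic members lie between -0.70 and -0.40 in vessel at days 3 and 7, while the medians over all members in kidney and brain stay within 0.1 of 0.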

How the data were processed

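The deposited values are linear intensities of 45101 probe sets on 30 arrays, which the authors made, per the submitters' processing notes, with Affymetrix Expression Console. Its algorithm is not given in the sources used here, nor its version. The number of arrays limits the precision. Probe sets were named from the platform annotation: 34945 had 1 symbol, 932 several and 9160 none, beside 64 controls; the last 3 kinds were not used. Intensities were analysed as log2(intensity + 16), which understates changes of dim genes. Genes were tested if they lay above the 40th percentile on at least as many arrays of a tissue as its smallest group holds. These arrays could come from different groups. The tests used limma 3.58.1 (lmFit and eBayes, R 4.3.3), with 1 fit per tissue and a joint fit of 26 arrays for tissue comparisons. Benjamini-Hochberg adjustment was over all genes tested, with a threshold of 0.05. The script was tested on simulated data. The members and all lists were chosen with earlier results of these data known. Named genes are those with the largest falls (20 overall and 3 per role), up to 5 called in each direction in a tested comparison or the 3 smallest p-values where none was called, the extremes at day 7 in heart and in vessel, the members with the most discordant probe sets, those nearest the threshold, and those whose promoter is printed. A few others were named after their values were seen: Sirt3, Slc2a4 and Bdh1, and the genes listed without values. Alternatives were an added value of 1 or 64, no filter, a further quantile normalization, the mean of all probe sets, each array left out, the replicate number as a block, trended and robust variances, and only the groups compared; leaving out heart arrays for the list counts was added after seeing the data.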

Additional observations from a re-analysis of the deposited data

Results flagged for a closer look

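In 4 members kidney and brain moved in opposite directions from their own day 0, with every array of that day beyond both day 0 arrays of its tissue. The value is the brain difference minus the kidney difference on the log2(intensity + 16) scale, over 2 arrays per group, and the difference was not tested. It was 1.31 at day 3 and 1.09 at day 7 for Cmpk2, -1.12 at day 7 for Htra3, -0.64 at day 3 for Acad11 and -0.51 at day 3 for Cdkn1c. None of these genes was called in either tissue by limma. Only the members with the smallest p-values in kidney or brain were looked at in this way.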

How the results depend on the processing

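The counts of members called higher or lower at day 7 in heart against kidney and brain stayed within 1.5 times under every alternative run (leaving out 1 array: 90 to 100 and 23 to 24 against kidney, 99 to 106 and 25 to 29 against brain). In kidney at day 1 the count of 1 became 2 with quantile normalization, with the mean of all probe sets and with trended and robust variances, and ran from 0 to 2 with 1 array left out. At day 3 in kidney it ran from 0 to 1; at day 7 in kidney and in brain it stayed at 0 with 1 array left out. The day 3 median of members in heart moved from -0.32 to -0.25 with 64 added and to -0.22 with the mean of all probe sets, and ran from -0.39 to -0.27 with 1 array left out; the day 1 median ran from -1.17 to -0.80 and the day 7 median from -0.32 to -0.23. The cause of these shifts was not tested. In the tested comparisons no recomputed value of a named gene turned its direction under these alternatives. For the described heart differences from day 0 only the size of the shift was checked, not the direction. Tmem25 in kidney lost its call when any 1 of 3 arrays was left out. Leaving out each heart array for the list counts at day 1 was chosen after seeing the data. The replicate numbers did not pair the heart samples (correlations of the deviations from -0.331 to 0.151), and with the number as a block the members called were 0 for heart day 7 against day 3, 1 for kidney day 1, 99 and 24 for heart against kidney, and 104 and 30 for heart against brain, and stayed at 0 for kidney days 3 and 7 and for brain. Day 1 falls of 0.8 rest on 3 arrays that differ among themselves, vessel has no replicate, and dim probe sets near the array median give compressed differences.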
